A study of Mus musculus with 48 samples.

Results

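The genes described here encode the proteins of the mitochondrial ribosome, and they were followed in the cerebral cortex of wild-type (WT) and Chd8 V986*/+ mice at 4 ages. Members were all rows of the deposited expression table whose symbol begins with Mrpl or Mrps followed by a number and, in some, a letter from a to c, which gave 78 genes of 24444. The rule used the symbol and no measured value of a gene. Of the 78 members, 51 encode proteins of the large subunit and 26 encode proteins of the small subunit, and 1, Mrps36, encodes a protein that carries the name but is known as a component of the alpha-ketoglutarate dehydrogenase complex.

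The mitochondrial ribosome translates the few messenger RNAs of mitochondrial DNA, all of which encode hydrophobic subunits of the oxidative phosphorylation complexes. Its RNAs come from mitochondrial DNA, but every one of its proteins is encoded in the nucleus, made on cytosolic ribosomes and imported. Some of these proteins descend from the bacterial ribosome, and others were added in the mitochondrial lineage and coat its surface. Loss of single members causes mitochondrial disease in which the brain, the heart and muscle are often affected.

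Polyadenylated RNA was sequenced from dissected cortex of 48 male C57BL/6J mice, with 6 WT and 6 Chd8 V986*/+ mice at E14.5 and again at the postnatal ages of 1, 6 and 12 months. The controls were WT littermates, and the mutant mice carried 1 copy of an allele made by CRISPR/Cas9, in which an insertion places a stop codon in Chd8, an ATP-dependent chromatin remodeler. The line came from a single founder backcrossed to C57BL/6J. Values were variance-stabilized (VST) levels on a log2 scale, made by the authors, and a difference of 1 is close to a doubling for genes as abundant as these. Levels on this scale are not per length, so levels are compared between samples and not between genes. Each tissue sample mixed all cortical cell types, so that fewer cells of a type and less RNA per cell cannot be told apart.

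Chd8 itself was lower in the mutant mice at every age, with differences (mutant minus WT) of −0.63 ± 0.08 (SE) in embryos, then −0.67 ± 0.05, −0.64 ± 0.04 and −0.54 ± 0.06 in order of age. These log2 differences had adjusted p-values (adjp, limma with Benjamini-Hochberg adjustment) of 0.0261, 3.01e-06, 1.07e-07 and 0.00261, and Chd8 was differentially expressed at adjp below 0.1 at each age. At E14.5 that call was lost in some alternatives, with adjp of 0.101 without the low-value filter, 0.12 without limma's trend, 0.279 with hindbrain and spinal cord markers as a covariate and from 0.12 to 0.128 without WT sample 2, 4 or 5 or Chd8 V986*/+ sample 4, while the difference in these fits lay between −0.63 and −0.59. The mean of 8 dorsal cortex markers lay between 10.2 and 12.1 in every sample. WT sample 6 at 12 months stood apart: its mean over the members was 9.29, against 8.92 to 9.03 in the other 5 WT samples of that age. In it 66 of the 78 members were highest of their group, where 26.4% of all genes above the low-value filter were highest and 30.1% lowest. The E14.5 samples numbered 1 were also high in both genotypes, with member means of 9.18 in WT and 9.29 in Chd8 V986*/+. Of the members, 47 and 71 were highest of their group in these samples, beside 23.3% and 28.4% of all genes. All 78 members lay above the low-value filter in every comparison.

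Averaged over the 78 members, the level hardly moved across life. The lowest, median and highest of the 6 WT sample means were 8.98, 9.03 and 9.18 in embryos, and in order of the later ages 8.90, 8.95 and 8.997, then 8.90, 8.97 and 9.02, then 8.92, 8.999 and 9.29. For Chd8 V986*/+ they were 8.95, 9.07 and 9.29 in embryos, and later 8.95, 8.98 and 9.09, then 8.91, 8.98 and 9.01, then 8.88, 8.98 and 8.99. The genotypes overlapped at every age, and so did E14.5 and the later ages. The other protein sets behaved differently over the first step. The sample means of 76 cytosolic ribosomal protein genes, whose products build the ribosomes of the cytoplasm, ran from 11.9 to 12.3 at E14.5 and from 10.9 to 11.2 at 1 month over both genotypes. Those of 81 nuclear genes for oxidative phosphorylation subunits ran from 9.72 to 10.1 at E14.5 and from 10.3 to 10.6 at 1 month.

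**Figure D1:**
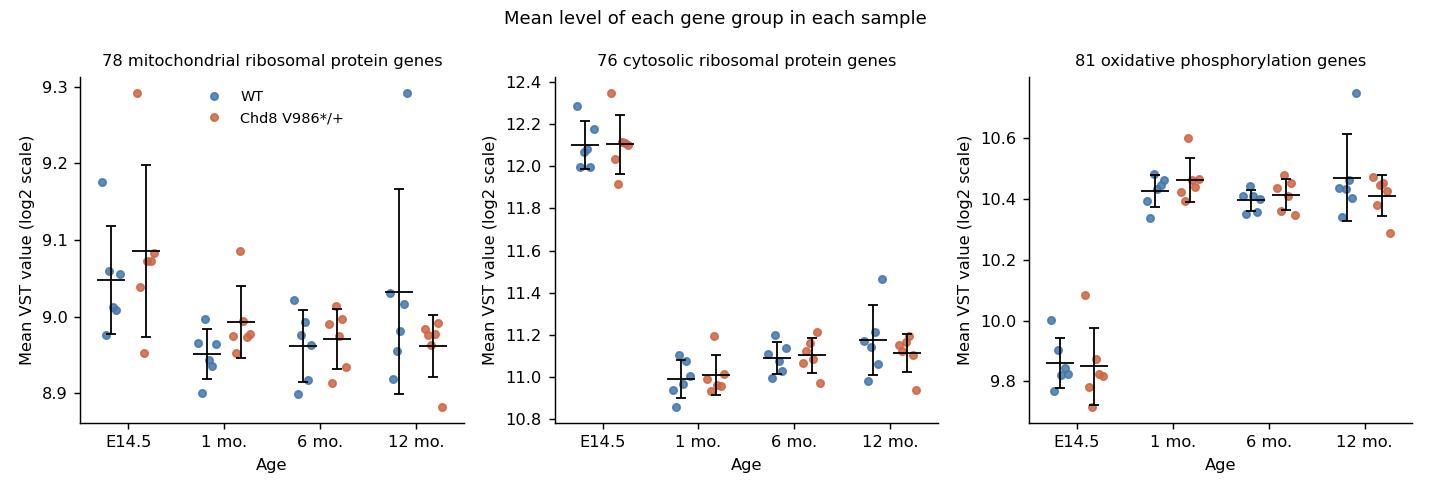
Mean VST value (log2 scale) of each sample for the 78 members, 76 cytosolic ribosomal protein genes and 81 oxidative phosphorylation genes, by age and genotype. Each point is 1 sample, and bars give the mean and SD of 6 samples. The members stay between 8.88 and 9.29, with WT sample 6 at 12 months the high point of its group, while the cytosolic set is lower and the oxidative phosphorylation set higher after E14.5.

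The flat mean held opposite movements of single members between E14.5 and 1 month. In WT cortex, 57 of 78 members were differentially expressed, 21 higher and 36 lower at 1 month, where 85.7% of the 17285 genes tested were called, 43.4% higher and 42.3% lower. In Chd8 V986*/+ cortex, 56 members were called, 19 higher and 37 lower, where 86.1% of 17227 genes were called, 43.7% higher and 42.4% lower. The share of members called was thus below that of all genes. The members' median change was −0.11 in WT and −0.10 in Chd8 V986*/+, beside 0.02 over all genes tested in each genotype. Under quantile normalization the median of all genes tested became −0.11 in each genotype, and the members' median was −0.10 in WT and −0.11 in Chd8 V986*/+, so that under that scaling the members lay at the median of all genes. The 21 rises and 35 falls called in WT under quantile normalization nearly matched the count without it.

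The cytosolic and respiratory sets moved far more. All 76 cytosolic ribosomal protein genes fell in WT, with a median of −1.12, and 75 of 76 fell in Chd8 V986*/+, with a median of −1.10. Of 80 oxidative phosphorylation genes tested in WT, 71 rose and 4 fell, with a median of 0.57, and of 79 tested in Chd8 V986*/+, 69 rose and 3 fell, with a median of 0.58. The 17 mitochondrial aminoacyl-tRNA synthetase genes, which charge the transfer RNAs used in the organelle, had a median of −0.12 in WT, with 4 higher and 8 lower. Like the members, they split between both directions.

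Within the mitochondrial ribosome, the large subunit had 11 rises and 25 falls among 51 genes in WT, with a median of −0.11, and the small subunit had 9 rises and 11 falls among 26 genes, with a median of −0.12. Members with a bacterial counterpart had 10 rises and 24 falls among 46 genes in WT, with a median of −0.14. Members specific to mitochondria had 10 rises and 12 falls among 31 genes, with a median of −0.03. In Chd8 V986*/+ cortex these medians were −0.12, −0.09, −0.19 and −0.08 in the same order. Both subunits and both classes of protein therefore held members that rose and members that fell. All genes tested in WT also split, with 43.4% called higher and 42.3% lower.

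Mrpl34, a small large-subunit protein with a bacterial counterpart (chr8:73988825-73989651 in mm9, plus strand, 2 exons), fell most in WT. Its lowest, median and highest WT values were 9.40, 9.50 and 9.74 at E14.5 and 8.30, 8.42 and 8.58 at 1 month, and in Chd8 V986*/+ 9.37, 9.54 and 9.71 at E14.5 and 8.39, 8.51 and 8.56 at 1 month. Every 1-month sample lay below every E14.5 sample in both genotypes. The log2 difference was −1.11 ± 0.07 (SE) in WT and −1.05 ± 0.06 in Chd8 V986*/+ (limma adjp 5.06e-10 and 5.45e-11).

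Mrpl52, a mitochondria-specific protein of the large subunit (chr14:55045746-55048587, plus strand, 5 exons), went from 8.80, 8.99 and 9.20 at E14.5 to 7.77, 7.92 and 8.09 at 1 month in WT. Its difference was −1.07 ± 0.08 in WT and −1.14 ± 0.09 in Chd8 V986*/+, with no overlap of the ages. Mrpl13, the counterpart of bacterial L13 in the large subunit (chr15:55365649-55389303, minus strand, 7 exons), went from 9.69, 9.77 and 10.01 to 8.85, 8.96 and 9.09 in WT. Its differences of −0.83 ± 0.07 in WT and −0.69 ± 0.08 in Chd8 V986*/+ were also free of overlap. Exons of Mrpl13 overlap those of Mtbp on the other strand. Mrps5, whose bacterial counterpart S5 is a small-subunit protein known for its part in translational fidelity (chr2:127412958-127432565, plus strand, 12 exons), went from 9.76, 9.88 and 9.91 to 8.98, 9.07 and 9.13 in WT. It fell by 0.79 ± 0.05 in WT and by 0.85 ± 0.05 in Chd8 V986*/+, again with separate ages.

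Mrpl48, a mitochondria-specific large-subunit protein (chr7:107694265-107756811, minus strand, 12 merged exons), rose most. Its WT values were 8.60, 8.85 and 8.90 at E14.5 and 9.49, 9.56 and 9.67 at 1 month, and the Chd8 V986*/+ values were 8.69, 8.81 and 9.16 at E14.5 and 9.67, 9.74 and 9.81 at 1 month. All 1-month samples of both genotypes lay above all E14.5 samples. The rise was 0.76 ± 0.06 in WT and 0.87 ± 0.07 in Chd8 V986*/+ (limma adjp 7.09e-09 and 4.85e-09). Its exons overlap those of D630004N19Rik on the same strand, so its level is uncertain to the extent that reads of that transcript were assigned to it.

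Mrps12 encodes the counterpart of bacterial S12, a protein of the decoding center (chr7:29524660-29526839, minus strand, 3 exons). It went from 8.32, 8.47 and 8.50 to 9.06, 9.16 and 9.30 in WT, and every sample of the later age was higher. The rise was 0.71 ± 0.06 in WT and 0.66 ± 0.06 in Chd8 V986*/+. Mrps26, a mitochondria-specific small-subunit protein (chr2:130389478-130394431, plus strand, 3 exons), went from 8.75, 8.86 and 9.13 to 9.31, 9.50 and 9.62 in WT, and it rose by 0.60 ± 0.07 in WT and 0.68 ± 0.07 in Chd8 V986*/+ with no overlap of the ages. Mrps36, the dehydrogenase component named above, was the fourth largest rise, at 0.50 ± 0.10 in both genotypes. Its WT samples at 1 month, from 7.55 to 7.71, lay above those at E14.5, from 6.83 to 7.46, and the Chd8 V986*/+ samples, from 7.47 to 7.93 and from 7.11 to 7.496, overlapped slightly.

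**Figure D2:**
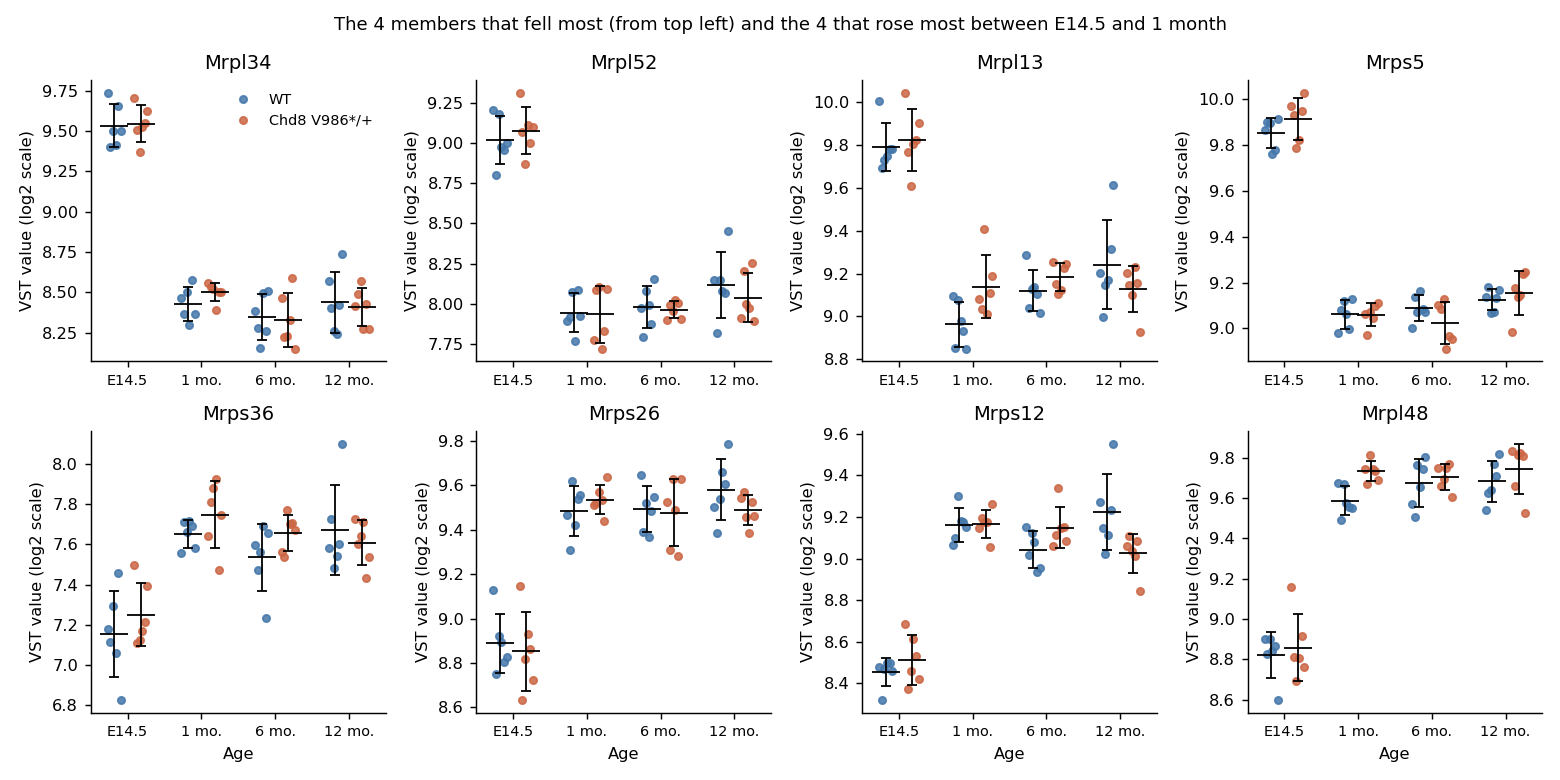
VST values (log2 scale) of every sample for the 4 members that fell most and the 4 that rose most between E14.5 and 1 month, by age and genotype, with bars for the mean and SD of 6 samples. The change falls between E14.5 and 1 month, and the 3 later ages overlap in all 8 genes.

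Most members called in 1 genotype were called in the other. Of the 57 called in WT and the 56 called in Chd8 V986*/+, 50 were called in both, which was 87.7% of the WT calls and 89.3% of the Chd8 V986*/+ calls, and all 50 had the same direction, with 18 higher and 32 lower. Over the 17074 genes tested in both, the shares were higher, at 95.4% of the WT calls and 95.1% of the Chd8 V986*/+ calls, and 14028 of the 14029 shared genes had the same direction. Members that fell by more than 0.5 in both genotypes numbered 6, and besides the 4 above they were Mrpl24, at −0.59 in WT, and Mrps6, at −0.54 in WT, where Mrps6 exons overlap Slc5a3 on the same strand. Members that rose by more than 0.5 in both numbered 3. The change of a member differed between genotypes by a median of 0.053 and by at most 0.22. The test of that difference itself called 0 members and 0 genes (limma interaction term, 0% of 17311 genes), and 2 of 78 members had an unadjusted p below 0.05, beside 4.6% of all genes.

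**Figure D3:**
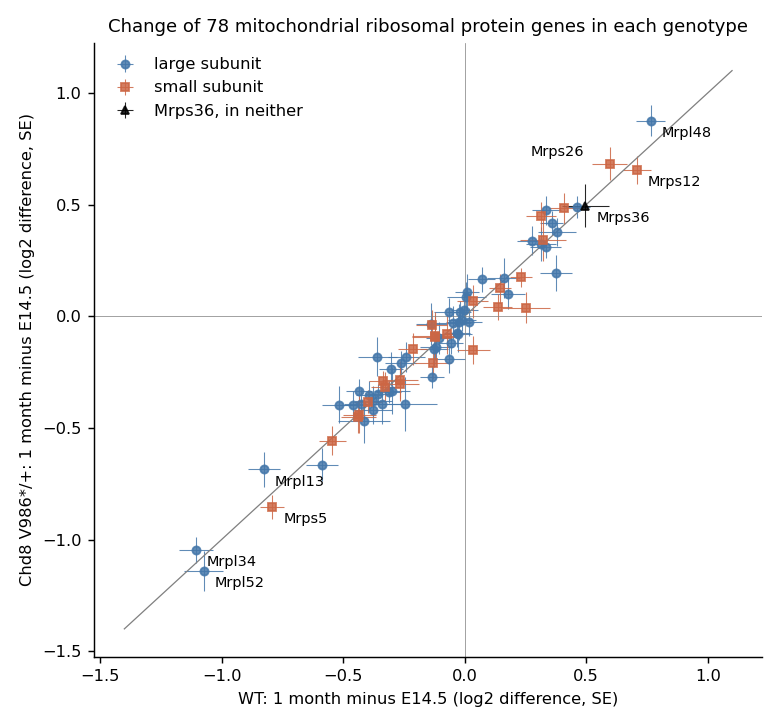
Log2 difference between 1 month and E14.5 of each of the 78 members in WT (horizontal) and Chd8 V986*/+ (vertical), with SE bars and the line of equal change; colors mark the subunit. Points lie along the line from Mrpl34 and Mrpl52 at the lower left to Mrpl48 at the upper right, and no member departs from the line by more than 0.22 on the log2 scale.

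Separation of the ages was less common among the members than among all genes. In WT, 38 members had no overlap between E14.5 and 1 month, 13 of them higher and 25 lower at 1 month, where 68.5% of genes tested did not overlap. In Chd8 V986*/+, 35 members did not overlap, 12 higher and 23 lower, where the share over all genes was 69.4%. Cell type markers moved strongly over the same interval. All 8 neuron, 8 astrocyte, 8 oligodendrocyte and 8 microglia markers rose in both genotypes, with WT medians of 2.89, 3.97, 6.36 and 2.77, and all 8 progenitor markers fell, with a WT median of −4.21. All 9 erythroid markers fell as well. Mean levels of the progenitor markers ran from 11.9 to 12.7 at E14.5 and from 7.72 to 8.31 at 1 month, and those of the neuron markers from 10.66 to 11.04 and from 14.3 to 14.5. The part of cell composition in the members' changes was not tested.

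Paralogs and members named for the other subunit were not alike. Mrps18a, Mrps18b and Mrps18c are related to bacterial S18, and the first of them sits in the large subunit. Mrps18a rose by 0.34 ± 0.06 in WT and 0.47 ± 0.07 in Chd8 V986*/+, from 8.99, 9.17 and 9.35 to 9.46, 9.49 and 9.58 in WT, with no overlap. Mrps18b rose by 0.25 ± 0.10 in WT (limma adjp 0.0266), while its difference of 0.04 in Chd8 V986*/+ did not pass the test. Mrps18c had differences of −0.07 in WT and −0.08 in Chd8 V986*/+ and was called in neither. Mrps30, which despite its name belongs to the large subunit and is also known as a protein linked to apoptosis, fell by 0.39 ± 0.05 in WT and 0.35 ± 0.06 in Chd8 V986*/+, with WT samples from 9.37 to 9.59 at E14.5 and from 8.94 to 9.18 at 1 month.

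Promoters of the members often held a motif of ETS factors. Sequences from 250 bases before to 50 bases after the annotated start (RefSeq, GRCm38.p6) were matched for 69 of the 78 members and searched on both strands for exact matches to CCGGAAG, the core bound by GABP and other ETS factors. It was present in 26 members, or 37.7%, beside 8.86% of all 32851 promoters, 9.93% of 27025 genes and 16.3% of the 13165 genes above the low-value filter. A match is a description of letters and not evidence of binding.

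Members with the motif moved in both directions between E14.5 and 1 month, with 7 rises and 10 falls called in WT. So did all genes tested, with 43.4% called higher and 42.3% lower. The members with the motif had a median of −0.07 and a range from −1.11 to 0.76. Members without it had a median of −0.13. Both the largest fall and the largest rise, Mrpl34 and Mrpl48, carried it. Mrpl48 has 4 annotated promoters, and the 100 bases taken before its start held no match. The 100 bases before the start are shown for 3 members with an ETS match there, of which Mrpl34 and Mrpl52 fell and Mrps26 rose, and for 2 members without a match there, of which Mrps5 fell and Mrps12 rose; capitals mark the matches.
Mrpl34 (chr8:71464826-71464925, plus strand): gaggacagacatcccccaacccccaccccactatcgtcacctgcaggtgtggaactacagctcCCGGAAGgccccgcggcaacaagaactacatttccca
Mrpl52 (chr14:54426809-54426908, plus strand): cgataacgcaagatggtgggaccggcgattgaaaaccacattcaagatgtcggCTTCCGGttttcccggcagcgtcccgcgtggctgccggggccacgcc
Mrps26 (chr2:130563657-130563756, plus strand): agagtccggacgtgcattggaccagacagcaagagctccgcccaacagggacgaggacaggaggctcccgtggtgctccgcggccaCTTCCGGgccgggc
Mrps5 (chr2:127587326-127587425, plus strand): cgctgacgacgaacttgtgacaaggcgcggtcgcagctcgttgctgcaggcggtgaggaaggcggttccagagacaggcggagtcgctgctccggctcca
Mrps12 (chr7:28741822-28741921, minus strand): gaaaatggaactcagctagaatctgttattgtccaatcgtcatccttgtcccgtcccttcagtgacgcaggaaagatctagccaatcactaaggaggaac
In these windows the ETS match begins 37 bases before the start in Mrpl34, 47 in Mrpl52 and 14 in Mrps26, and in Mrpl52 and Mrps26 it lies on the opposite strand. Mrps12 holds a match elsewhere in its promoter sequence and Mrps5 holds none.

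Many members share their promoter region with a neighbor transcribed away from them. In the mm9 annotation, 25 of 78 members, or 32.1%, had a protein-coding gene on the opposite strand whose start lay within 500 bases of their own, beside 8.91% of 18870 coding genes of the table and 11% of 14744 above the low-value filter. The neighbors include Sars2, the mitochondrial seryl-tRNA synthetase, 171 bases from Mrps12, Ndufb5, a complex I subunit, 157 bases from Mrpl47, Twnk, the mitochondrial DNA helicase, 369 bases from Mrpl43, and Fau, which encodes a cytosolic ribosomal protein, 135 bases from Mrpl49. Mrps11 and Mrpl46 are each other's neighbor at 412 bases, and their exons overlap on opposite strands. Of 15 pairs in which both genes were called in WT between E14.5 and 1 month, the Mrps11 and Mrpl46 pair counted once from each side, 8 changed in the same direction and 7 in opposite directions. Mrps12 rose by 0.71 while Sars2 changed by −0.35, Mrpl47 changed by −0.46 while Ndufb5 rose by 0.59, and Mrps11 changed by −0.27 while Mrpl46 rose by 0.38. Mrpl13 and Mtbp both fell, with differences of −0.83 and −2.65.

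Factors that assemble the mitochondrial ribosome also moved both ways. Of 25 assembly genes in WT, 16 fell and 6 rose, with a median of −0.33. Over all genes tested in WT, 42.3% were called lower and 43.4% higher. Gtpbp10, a GTPase of large-subunit assembly, changed by −1.03 ± 0.07, and Rpusd4, a pseudouridine synthase of the large ribosomal RNA, by −0.83 ± 0.07. Mrm1, a methyltransferase of the same RNA, rose by 0.78 ± 0.09, and Rbfa, a maturation factor of the small subunit, by 0.58 ± 0.08. Whether assembly factors and members differed was not tested.

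Among 16 translation genes in WT, 11 fell and 3 rose, with a median of −0.28, beside 42.3% of all genes called lower and 43.4% higher. Mtif2, the initiation factor that places the first transfer RNA, changed by −0.54 ± 0.06 and Oxa1l, which inserts new proteins into the inner membrane, by −0.54 ± 0.04, while the elongation factor Gfm1 rose by 0.48 ± 0.05 and the release factor Mtrf1 by 0.24 ± 0.11. Of 5 further ribosome proteins whose symbols lack the Mrp prefix, the small-subunit proteins Chchd1 and Ptcd3 fell, with differences of −0.79 ± 0.05 and −0.34 ± 0.06, and Aurkaip1, also of the small subunit, rose by 0.43 ± 0.07. Whether this list differed from the members was not tested.

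Of 13 transcription factors and coactivators tied to mitochondrial genes, 8 fell and 3 rose in WT, beside the same 42.3% and 43.4% of all genes. Myc changed by −2.47 ± 0.07 and Nrf1, an activator of nuclear genes for mitochondrial proteins, by −1.62 ± 0.06. The coactivators Ppargc1a and Ppargc1b rose by 1.76 ± 0.12 and 2.94 ± 0.15. Their changes were larger than that of any member.

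After 1 month the members were close to constant. From 1 to 6 months, 7 members were called in WT, 5 higher and 2 lower, where 24.6% of 17255 genes were called, 12.3% in each direction, and 8 in Chd8 V986*/+, 3 higher and 5 lower, where 26.8% of 17207 genes were called, 14% higher and 12.8% lower. With samples centred on their median gene, Chd8 V986*/+ had 2 higher and 7 lower. Only Mrpl36 and Mrpl38 were called in both genotypes, and the Mrpl38 call in Chd8 V986*/+ was close to the threshold. The members' median was 0.03 in WT and −0.02 in Chd8 V986*/+. Cytosolic ribosomal protein genes had 25 rises and 4 falls among 76 in WT over the same step, with a median of 0.11. All 8 oligodendrocyte markers fell in both genotypes, with a median of −0.79 in WT, and the part of cell composition was not tested here either.

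Mrpl38, a large-subunit protein with a phosphatidylethanolamine-binding fold, had WT values of 9.24, 9.39 and 9.44 at 1 month and 9.48, 9.57 and 9.72 at 6 months. All 6 older samples were higher, and the rise was 0.20 ± 0.05 in WT (limma adjp 0.0107) and 0.13 ± 0.05 in Chd8 V986*/+ (adjp 0.0961). The Chd8 V986*/+ call was lost with the replicate number as a block (adjp 0.111), with samples centred on their median gene (adjp 0.103) and without any 1 sample other than sample 1 at 1 month or sample 5 at 6 months (adjp up to 0.20). Mrpl36, the counterpart of the small bacterial protein L36, had WT values of 8.66, 8.71 and 8.74 at 1 month and 8.46, 8.54 and 8.61 at 6 months. All older samples were lower, with a fall of 0.16 ± 0.05 in WT and 0.17 ± 0.05 in Chd8 V986*/+. Mrpl2, whose bacterial counterpart lies near the peptidyl transferase center, rose by 0.17 ± 0.06 in WT, and Mrps6 fell by 0.20 ± 0.07, both with overlapping ages (adjp 0.0691 and 0.0722). Without an overlap between the ages were 2 members in WT, where the share over all genes was 8.47%, and 1 in Chd8 V986*/+, Mrpl4, beside 9.37%.

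From 6 to 12 months, limma called 0 members in either genotype, where 0.00579% of 17283 genes were called in WT and 3.43% of 17254 genes in Chd8 V986*/+. Unadjusted p-values below 0.05 were reached by 3 members in WT, beside 6.75% of genes, and by 8 in Chd8 V986*/+, beside 15.9%. In WT, 69 of 78 members were higher at 12 months, with a median of 0.07, beside 46.9% of all genes. Without WT sample 6 the median was 0.03, with 26 members lower. In that fit 0 members reached an unadjusted p below 0.05, beside 5.17% of genes. With all samples, the 3 members in WT were Mrps11, at 0.21 ± 0.10, Mrpl55, at 0.20 ± 0.08, and Mrps12. The highest 12-month value of each of the first 2, 8.85 and 9.03, lay above all 6-month samples while the groups overlapped.

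Between the genotypes, limma called 0 members at any age, and this was the comparison at the center of the study. The background of calls was also low in these fits, and in order of age it was 0.00593% of 16877 genes, 0.139% of 17221, 0.0927% of 17256 and 0.0463% of 17288. The study's own DESeq2 model, which corrected for batch, called many more genes over the 4 ages at the same threshold. Why the fits differed was not tested. With 1 fit of all 48 samples 3 members were called at 12 months, all lower, where 3.01% of genes were called. Unadjusted p-values below 0.05 were reached by 5, 9, 3 and 11 of the 78 members at the 4 ages, beside 4.56%, 8.8%, 7.59% and 11.6% of all genes, and the members' own percentages were 6.41, 11.5, 3.85 and 14.1. No member separated the genotypes completely at any age, where 0.261%, 0.825%, 0.527% and 0.868% of all genes did. With all samples, no member differed by more than 0.28 on the log2 scale at any age. Without WT sample 6 at 12 months, the largest difference of a member at that age was 0.36.

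At 3 of the 4 ages most members lay on 1 side of 0, but the side at 12 months was opposite to that at E14.5 and 1 month. In embryos 60 of 78 members were above 0, with a median difference (Chd8 V986*/+ minus WT) of 0.04. At 1 month there were 61, with the same median of 0.04, and at 6 months 41, with a median of 0.00. By 12 months only 13 were above 0, with a median of −0.09. Over all genes 50.4%, 48.6%, 49.6% and 51.4% were above 0, with medians within 0.01 of 0. The oxidative phosphorylation and cytosolic sets leaned like the members at some ages. At 1 month 80% and 76.3% of their genes were above 0, beside 78.2% of members, and at 12 months 10% and 18.4%, beside 16.7%. In embryos they stood at 43.6% and 53.9%, beside 76.9% of members. The 17 mitochondrial aminoacyl-tRNA synthetase genes were higher on average in Chd8 V986*/+ at every age, also at 12 months. Their WT and Chd8 V986*/+ means were 8.94 and 9.01 in embryos. In order of the later ages they were 8.82 and 8.88, 8.87 and 8.90, and 8.89 and 8.92. At 1 month the highest WT sample, 8.84, lay below the lowest Chd8 V986*/+ sample, 8.86. Members of 1 sample share its library, so that these counts are not independent observations.

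**Figure D4:**
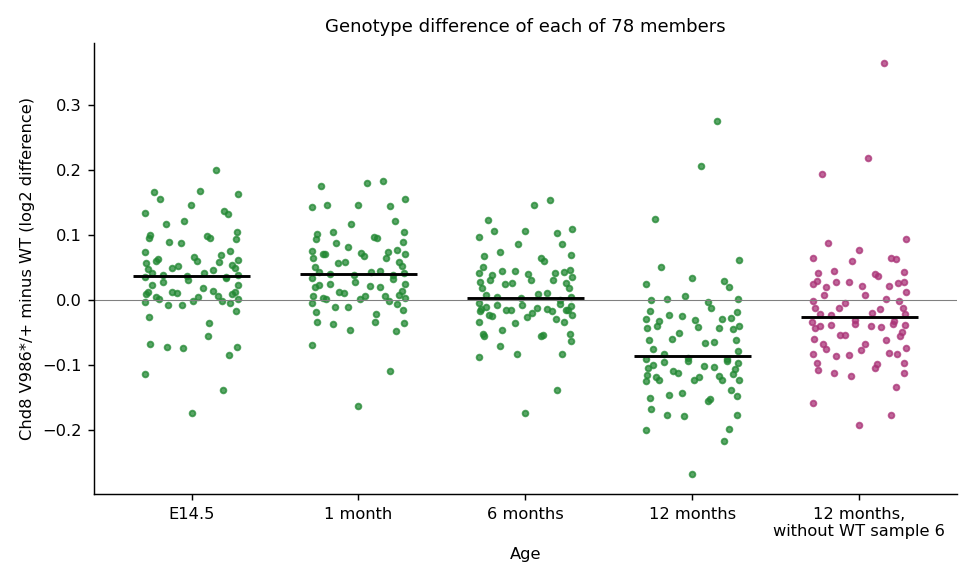
Log2 difference between Chd8 V986*/+ and WT of each of the 78 members (points) and their median (bar) at 4 ages, with the 12-month comparison repeated without WT sample 6. Medians are 0.04, 0.04, 0.00 and −0.09, and −0.03 without that sample.

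The 12-month values moved with WT sample 6. Without it, the median was −0.03, 50 of 78 members were below 0 instead of 65, and 6 instead of 11 had an unadjusted p below 0.05, which was 7.69% of members beside 10.2% of all genes in that fit. That sample was also high in the cytosolic ribosomal protein genes, at 11.5 against 10.98 to 11.2 in the other WT samples, and in the oxidative phosphorylation genes, at 10.7 against 10.3 to 10.5. The 12-month medians of those sets, −0.06 and −0.06 with all samples, became −0.01 and 0.00 without it. At 1 month Chd8 V986*/+ sample 3 had the highest member mean of its group, 9.09 (next 8.99). That sample was also highest of its group in the cytosolic ribosomal protein genes, at 11.2, and in the oxidative phosphorylation genes, at 10.6. At E14.5 the median was 0.02 without both samples numbered 1. The mean of hindbrain and spinal cord markers ran from 3.12 to 6.98 in the WT samples of that age and from 3.09 to 4.35 in Chd8 V986*/+, and with that mean as a covariate the members' median was within 0.01 of 0.

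Of the members with the largest differences at each age, Mrpl16 was named at E14.5 and 1 month and Mrps18b at E14.5 and 12 months, and all of them had overlapping genotypes and missed the adjusted threshold. At E14.5, Mrps18b was 7.43, 7.58 and 7.77 in WT and 7.61, 7.79 and 7.87 in Chd8 V986*/+, with 4 of 6 mutant samples above all WT samples. The difference was 0.20 ± 0.08 (limma adjp 0.982). Mrps10, the small-subunit counterpart of bacterial S10, differed by 0.17 ± 0.07, and Mrpl16, whose bacterial counterpart lies next to the peptidyl transferase center, by −0.17 ± 0.08, with 4 of 6 mutant samples below all WT samples.

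At 1 month Mrpl16 was again the lowest, at 8.73, 8.88 and 8.93 in WT and 8.53, 8.70 and 8.83 in Chd8 V986*/+. The difference was −0.16 ± 0.06 (limma adjp 0.406), with all 6 mutant samples below the WT median. At 6 months it was −0.03. Mrpl47, a large-subunit protein related to bacterial L29, was 7.69, 7.75 and 7.86 in WT and 7.80, 7.93 and 8.04 in Chd8 V986*/+, with 5 of 6 mutant samples above all WT samples and a difference of 0.18 ± 0.06. Mrps33, a mitochondria-specific small-subunit protein, differed by 0.18 ± 0.08. The lowest adjp of any member at that age was 0.33, for Mrpl48, at 0.15 ± 0.04.

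At 6 months the members named by the same rule were Mrpl27, the counterpart of a bacterial protein that reaches toward the peptidyl transferase center, at 0.15 ± 0.07, Mrpl17 at 0.11 ± 0.04, and Mrpl54 at −0.17 ± 0.07, all with adjp above 0.6. At 12 months Mrps11 was 8.28, 8.43 and 8.85 in WT and 8.07, 8.26 and 8.28 in Chd8 V986*/+. All 6 mutant samples lay below the WT median and 3 lay below every WT sample, with a difference of −0.27 ± 0.09 (limma adjp 0.294). Without WT sample 6, the differences of all members at that age ran from −0.19 to 0.36. Mrps6, a small-subunit protein, was 8.55, 8.73 and 9.06 in WT and 8.52, 8.56 and 8.59 in Chd8 V986*/+, at −0.22 ± 0.08. Mrpl23, the counterpart of a bacterial protein of the exit tunnel, and Mrps18b were higher, at 0.28 ± 0.12 and 0.21 ± 0.08, with all 6 mutant samples above the WT median in each.

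Differences of the genotype effect between ages were tested directly, and limma called 0 members in each of the 4 tests. From 1 to 6 months 0% of 17311 genes were called, from 6 to 12 months 0.0578% and from E14.5 to 12 months 0.0635%. Unadjusted p-values below 0.05 were reached by 2 members from 1 to 6 months, beside 3.36% of genes, by 12 from 6 to 12 months, beside 8.68%, and by 15 from E14.5 to 12 months, beside 11.5%. All 15 of the last were lower in the mutant at 12 months relative to E14.5, beside 5.69% of genes. The lowest adjp was 0.17 for Mrpl44, a large-subunit protein related to RNase III, and from 6 to 12 months 0.24 for Mrps6, both picked out after their values were seen. Without WT sample 6 at 12 months, 10 members had an unadjusted p below 0.05 from E14.5 to 12 months, or 12.8% beside 8.45% of genes, and 6 from 6 to 12 months, or 7.69% beside 6.49%.

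Genes around the mitochondrial ribosome gave 1 call between genotypes. Gabpa, the DNA-binding subunit of GABP, was 9.48, 9.60 and 9.74 in WT and 9.79, 9.84 and 9.99 in Chd8 V986*/+ at 1 month, with no overlap. The difference was 0.28 ± 0.05 (limma adjp 0.0553). Mean Gabpa levels in WT and Chd8 V986*/+ were 10.80 and 10.98 at E14.5, 9.59 and 9.79 at 6 months, and 9.64 and 9.61 at 12 months. Whether the level of Gabpa bears on the members was not tested. None of the 25 assembly, 16 translation and 5 further ribosome genes was called at any age. Over these 3 lists, the counts at an unadjusted p below 0.05 were 1, 1 and 0 in embryos, then 3, 0 and 1, then 2, 0 and 0, and 1 in each list in the oldest mice.

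Members varied together from sample to sample within groups. After each group's mean was subtracted, the correlation of a member with the mean of the other 77 members over 48 samples had a median of 0.66 and ran from −0.15 to 0.89, and 61 members were above 0.5. These points share libraries and scaling, and the values are a description. Over the uncorrected values the members most like the rest were Mrpl28, Mrps23 and Mrpl12, the stalk protein of the large subunit, at Pearson r of 0.88, 0.85 and 0.84. The least alike were Mrpl35, Mrpl48 and Mrps25, at −0.40, −0.36 and −0.33, which all rose between E14.5 and 1 month, by 0.46, 0.76 and 0.23 in WT. Within groups Mrpl48 reached 0.57, whereas Mrpl35 and Mrps25 reached 0.13 and 0.12.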

How the data were processed

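After quality filtering and adapter trimming, the authors mapped reads to mm9 with STAR 2.5.2b, quantified transcripts with Salmon 0.11.3 and used DESeq2 1.22.2, and deposited variance-stabilized values on a log2 scale for 24444 genes in 48 samples. The deposited log2 values hold no counts, and read depths the study lists separately were not used here. The authors' differential expression model corrected for batch, but no batch is named in the sources used here, so none was fitted, and its part in the number of genotype calls was not tested. Samples were grouped by the labels. Members and lists were chosen with earlier results of these data known. The low-value filter kept genes averaging at least 0.5 more than the most frequent gene mean of the table, 2.14. With a mean-variance trend, limma 3.58.1 (R 4.3.3) was fitted to these genes on the 12 samples of each comparison. All 48 samples were used for differences of genotype effects. Calls were made at adjp below 0.1 (Benjamini-Hochberg over all genes tested). Two-sided p-values measure the spread between 6 mice a group. The fit was tested on simulated data of the E14.5 genotype comparison with 16881 genes. It recovered 91.8% of log2 differences of 1 and 55% of those of 0.5, with 16 false calls. The simulated noise was independent between genes, unlike that of the members. Differences below 0.5 were not simulated, so no recovery is known for differences as small as the members' between genotypes. Members named were those with the 2 largest differences in each direction per age at an unadjusted p below 0.05, the 4 largest rises and falls to 1 month called in both genotypes, the 2 largest each way in later WT steps, the 3 most and least like the other members, and 5 paralogs or misnamed members. Pathway genes named were those called between genotypes and the 2 largest changes each way. Correlations were described within groups because the ages form clusters. Positions came from GENCODE vM1 (mm9), and promoters from RefSeq (GRCm38.p6), without conversion between builds. The labels and the methods name different library kits, and 23 members share exon sequence with a gene on the other strand. Python 3.11.15, numpy 2.4.6, pandas 2.3.3 and matplotlib 3.10.9 were used. Alternatives were another model, block, filter, scaling or threshold, and leaving out each sample.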

Additional observations from a re-analysis of the deposited data

Results flagged for a closer look

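Within each group of 6 samples, the gap between the most extreme sample and its nearest neighbor was compared with the group's range for the mean of all members and for 31 named members. Of 256 such groups, 23 had a gap above the critical value of Dixon's test, where chance gives about 1 in 20.

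For the mean of all members, WT sample 6 at 12 months was high at 9.29 (next 9.03), Chd8 V986*/+ sample 3 at 1 month was high at 9.09 (next 8.99), and Chd8 V986*/+ sample 6 at 12 months was low at 8.88 (next 8.96).

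WT sample 6 at 12 months was likewise high for Mrpl16, at 9.21 (next 8.98), and Mrps18a, at 10.07 (next 9.65). Chd8 V986*/+ sample 6 at 12 months was low for Mrpl12, at 9.74 (next 9.90), and Mrps12, at 8.85 (next 9.01).

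At E14.5 the samples numbered 1 were high for Mrpl13 in WT, at 10.01 (next 9.78), for Mrpl27 in WT, at 8.77 (next 8.56), and in Chd8 V986*/+ for Mrpl27, at 8.78 (next 8.57), Mrpl28, at 10.33 (next 9.92), Mrps18a, at 9.37 (next 9.09), and Mrps23, at 10.08 (next 9.76). WT sample 2 at E14.5 was low for Mrps11, at 8.32 (next 8.54), and Mrps12, at 8.32 (next 8.46). WT sample 6 at E14.5 was low for Mrpl48, at 8.60 (next 8.83).

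The remaining 7 were spread over single samples. At 1 month Chd8 V986*/+ sample 3 was high for Mrps10, at 8.58 (next 8.36), sample 4 low for Mrpl34, at 8.39 (next 8.50), sample 5 high for Mrps23, at 9.71 (next 9.60), and WT sample 2 low for Mrps23, at 9.29 (next 9.50). At 6 months WT sample 4 was high for Mrpl17, at 9.46 (next 9.36), and in Chd8 V986*/+ sample 3 was high for Mrps12, at 9.34 (next 9.15), and sample 6 low for Mrps6, at 8.51 (next 8.73).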

How the results depend on the processing

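The counts of members called between E14.5 and 1 month stayed between 52 and 58 under every alternative run. The named members with the largest rises and falls over that step kept their direction in all of them. Named members whose change was smaller than its SE had no settled direction. Mrpl2, at −0.05 ± 0.07 in WT and −0.03 ± 0.07 in Chd8 V986*/+, was such a member. Replicate numbers were not taken to pair the samples, since not every same-numbered pair of the 2 genotypes correlated above 0.1 in its deviations at any age. At E14.5 all correlations were positive, at 0.58, 0.12, 0.22, 0.07, 0.01 and 0.38 for numbers 1 to 6, and at the later ages they ran from −0.14 to 0.17. With the number as a block, 56 members were called in WT and 55 in Chd8 V986*/+ between E14.5 and 1 month, 7 and 6 from 1 to 6 months, and 0 in the other tests.

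Between genotypes, 1 fit of all 48 samples called 3 members at 12 months, all lower (Mrps11, Mrps12 and Mrpl19, with Mrps11 at adjp 0.0866), where 3.01% of all genes were called in that fit, and every other alternative called 0. From 1 to 6 months the counts were least stable: in WT 3 with 1 fit of all samples and 2 at adjp below 0.05, and in Chd8 V986*/+ 5 with the set of replicates as a covariate and 4 at adjp below 0.05. The cause was not tested.

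Leaving out 1 sample at a time gave 53 to 58 and 52 to 58 members between E14.5 and 1 month in WT and Chd8 V986*/+, 4 to 7 and 4 to 8 from 1 to 6 months, 0 to 1 in Chd8 V986*/+ from 6 to 12 months, 0 to 2 for the difference of genotype effects from 6 to 12 months, 0 to 1 for that from E14.5 to 12 months, and 0 elsewhere. From 1 to 6 months the WT count was 4 without sample 1, 3 or 5 at 1 month or sample 1, 4, 5 or 6 at 6 months, and the Chd8 V986*/+ count was 5 without sample 3 or 6 at 1 month or sample 3 at 6 months and 4 without sample 2 at 6 months. The single calls from 6 to 12 months in Chd8 V986*/+ came without sample 6 of either age. For the difference of genotype effects from 6 to 12 months, 2 members were called without WT sample 3 at 12 months and 1 without WT sample 4, and from E14.5 to 12 months 1 was called without either of these, without WT sample 6 at E14.5 or without Chd8 V986*/+ sample 3 at E14.5. For single named members, 46 values lost a call, 14 gained one and 1775 did neither. All 46 losses were in the steps from 1 to 6 months, 16 of them for Mrpl38 in Chd8 V986*/+ and 12, 9 and 7 for Mrpl13, Mrpl2 and Mrps6 in WT.

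Chosen after the data were seen, leaving out WT sample 6 at 12 months moved the members' median there from −0.09 to −0.03 between genotypes and from 0.07 to 0.03 in WT from 6 months. The table holds no counts, so no interval for sequencing depth was computed.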
